A study of Homo sapiens with 12 samples.

Results

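The genes of cholesterol and fatty acid synthesis were followed after silencing of cyclin D1 in 2 mantle cell lymphoma lines. The group holds 32 genes, taken by symbol from the deposited tables of 23617 symbols for Granta-519 and 23615 for JeKo-1, with the row of highest mean used where a symbol stood on several rows. It covers 17 genes of sterol synthesis, 6 regulators and carriers of sterols, and 9 genes of fatty acid synthesis, elongation and desaturation. Cells build cholesterol from acetyl-CoA through mevalonate, farnesyl diphosphate and squalene, and build fatty acids from the same acetyl-CoA through malonyl-CoA. Transcription of both pathways is controlled by the sterol regulatory element-binding proteins encoded by SREBF1 and SREBF2, which SCAP escorts to the Golgi for activation when sterols are low and which the INSIG proteins hold back in the endoplasmic reticulum when sterols are plentiful. Dividing lymphoid cells need both products for new membranes.

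Each line carried, by lentivirus and after puromycin selection, an shRNA that targets cyclin D1 (shCycD1) or, introduced and selected in the same way, a control shRNA (shCtrl). RNA sequencing gave 3 libraries of each of the 4 groups, named Granta-519 shCycD1, Granta-519 shCtrl, JeKo-1 shCycD1 and JeKo-1 shCtrl and numbered 1 to 3 in the labels. The labels name a single shRNA for the target, and the series design calls the libraries biological replicates without saying how they were kept apart, so p-values measure the spread between these libraries. The lines were grown in different media per the labels' protocols, so line and medium cannot be told apart. Values are RPKM, reads per kilobase of gene scaled to the reads of the library, and changes are on the log2(RPKM + 0.5) scale, shCycD1 over shCtrl, with the standard error (SE). A gene was called higher or lower when the limma p adjusted over all genes tested in the line was under 0.05. Levels were never compared between the lines, because low Granta-519 values fell on whole steps when scaled by the genomic span of a gene, whereas which length was used for JeKo-1 is not settled.

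The targeted gene CCND1, which encodes cyclin D1, was lower in every shCycD1 library. It stood at 213, 298 and 292 RPKM in Granta-519 shCycD1, against 924, 1044 and 874 RPKM in Granta-519 shCtrl, a log2 change of -1.83 ± 0.14 (adjusted p = 0.000258). JeKo-1 shCycD1 held 65.4, 64.8 and 67.4 RPKM, against 395, 330 and 315 RPKM in shCtrl, a change of -2.38 ± 0.09 (adjusted p = 1.95e-06). All 8 B-cell markers reached the minimum for testing in both lines. Their summed level was 2103 to 2207 RPKM in shCycD1 and 2303 to 2399 RPKM in shCtrl in Granta-519, and 1381 to 1557 RPKM in shCycD1 and 986 to 1122 RPKM in shCtrl in JeKo-1. The 8 T and NK cell markers summed to at most 1.45 RPKM in Granta-519 and 3.79 RPKM in JeKo-1, with 7 and 5 of them under 1 RPKM in all libraries. Myeloid markers summed to 40.9 to 47.7 RPKM in Granta-519 shCycD1 and 46.9 to 52.8 RPKM in shCtrl, mostly CSF1R, and to at most 2.41 RPKM in JeKo-1, with 5 and 7 of 8 under 1 RPKM and 2 and 4 at 0 in all libraries. Epithelial and fibroblast markers summed to 13.5 to 16.4 RPKM in Granta-519 shCycD1 and 11.5 to 15.0 RPKM in shCtrl, and to 3.74 to 4.58 RPKM in JeKo-1 shCycD1 and 2.59 to 3.08 RPKM in shCtrl, with 5 of 8 under 1 RPKM in all libraries of each line. Among the lymphoma markers, SOX11 was lower in both lines, by -0.43 in Granta-519 and -0.67 in JeKo-1 on the log2 scale. The part of these levels in the results that follow was not tested. Libraries of a group correlated at 0.981 to 0.988 in Granta-519 and 0.968 to 0.974 in JeKo-1 across genes. Spike-ins, which are synthetic RNAs mixed into each sample, took 5.34 to 6.41% of the summed RPKM in Granta-519 shCycD1 and 7.9 to 11.62% in shCtrl, whereas the JeKo-1 groups overlapped at 4.51 to 7.37% in shCycD1 and 4.64 to 6.77% in shCtrl. Scaling to the spike-ins moved the median change of all genes tested to 0.74 in Granta-519, against 0.03 as deposited. In bulk RNA of this kind, fewer cells of a type and less RNA per cell cannot be told apart. Read depth is not known from these values.

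All 32 genes reached the minimum of 1 RPKM in at least 3 libraries of each line. ELOVL6 in Granta-519 passed through its shCtrl libraries alone, so a call there could be in the lower direction alone. The counts of falls over the 32 genes in Granta-519 and in both lines are also given without it. In Granta-519, 15 of the 32 genes fell and 2 rose, and 15 were not called. These are 46.9% and 6.2% of the group, against 18.2% called lower and 22.4% called higher among the 12669 genes tested. Without ELOVL6, 14 of 31 fell (45.2%). The median change of the 32 genes was -0.37, against 0.03 over all genes tested. With spike-in scaling the same comparison gave a median of 0.41 for the 32 genes and 0.74 for all genes, with 9 of the 32 called higher and 0 called lower, against 55.5% and 0.837% of all genes, so the direction in Granta-519 holds relative to the other genes and not to the spike-ins. The 9 were MVD, TM7SF2, DHCR7, SREBF2, SCAP, INSIG2, STARD4, ELOVL1 and ELOVL5. In JeKo-1, 13 of the 32 fell, 9 rose and 10 were not called. These are 40.6% and 28.1% of the group, against 27.8% called lower and 36.7% called higher among the 11867 genes tested. The median was -0.12 for the 32 genes and 0.09 for all genes tested, and with spike-in scaling 4 were called lower (MSMO1, EBP, STARD4 and ELOVL6) and 4 higher (MVK, MVD, TM7SF2 and SCAP), against 13.1% and 14.0% of all genes.

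**Figure D1:**
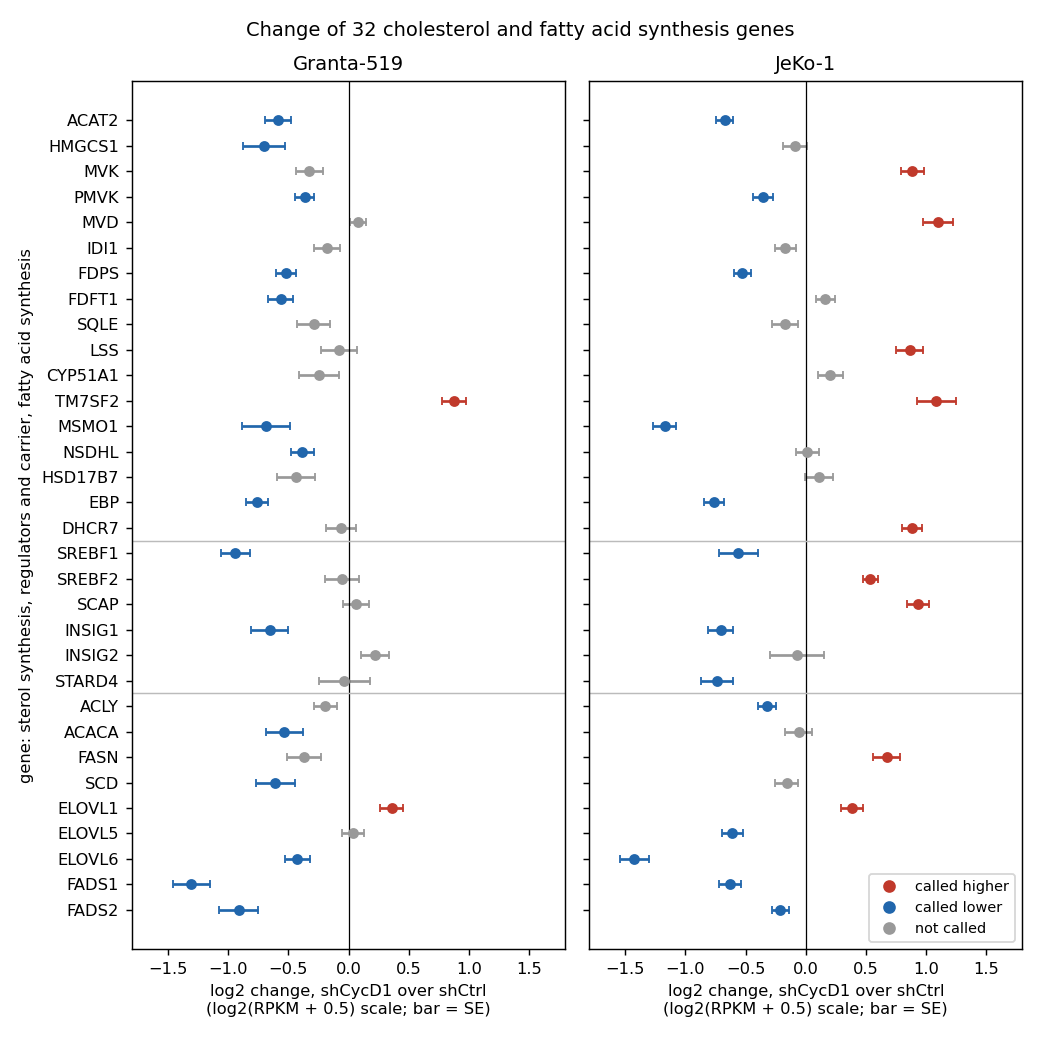
Log2 change of each of the 32 genes, shCycD1 over shCtrl, in Granta-519 (left) and JeKo-1 (right), on the log2(RPKM + 0.5) scale, with points for the limma estimate and bars for its SE (3 libraries per group). In Granta-519, 15 points are called lower and 2 higher (0 lower and 9 higher with spike-in scaling), and in JeKo-1 13 are called lower and 9 higher (4 and 4 with spike-in scaling). With that scaling 0.837% of all genes were called lower and 55.5% higher in Granta-519, and 13.1% and 14% in JeKo-1.

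The plot of changes shows that the falls in Granta-519 run through all 3 roles, whereas JeKo-1 is split within each role. The libraries of the groups did not overlap for 16 genes below and 2 genes above shCtrl in Granta-519, against 24.2% below and 29.8% above over all genes tested. ELOVL6 is among the 16, and its separation there was fixed by its pass of the filter through shCtrl alone. In JeKo-1 they did not overlap for 13 genes below and 10 above shCtrl, against 30.5% and 39.1% over all genes tested.

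Of the 32 genes, 10 fell in both lines and 2 rose in both, and none was called in opposite directions, against 1.14% of all genes that rose in Granta-519 and fell in JeKo-1 and 1.86% that did the reverse. The falls in both are 31.2% of the group, against 13.1% of the 10654 genes tested in both lines, and the rises in both are 6.2%, against 14.8%. Without ELOVL6, 9 of 31 fell in both. The 10 were ACAT2, PMVK, FDPS, MSMO1 and EBP of sterol synthesis, the regulators SREBF1 and INSIG1, and ELOVL6, FADS1 and FADS2 of fatty acid elongation and desaturation. The 2 that rose were TM7SF2, a sterol reductase, and ELOVL1, an elongase of very long chains. Under spike-in scaling 0 of the 32 fell in both lines and 3 rose in both. With that scaling 0.837% of all genes were called lower in Granta-519, so the 0 says little of these genes. The share of all genes called alike in both lines under it is not given here.

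The promoters of the 4 genes with the largest summed change among those called alike in both lines are shown. ELOVL6 is counted there by its Granta-519 call, which could be in the lower direction alone because it passed the filter through shCtrl alone. The limma fit with no filter on low values also called it lower there (adjusted p = 0.026). They are the 250 bases before the first listed RefSeq start in GRCh38.p14, 5′ to 3′ on the gene's strand, with matches to the NF-Y motif CCAAT on either strand in capitals. The TM7SF2 window lies at chr11:65111622-65111871 on the plus strand and that of FADS1 at chr11:61817004-61817253 on the minus strand. The MSMO1 window lies at chr4:165327419-165327668 on the plus strand and that of ELOVL6 at chr4:110198616-110198865 on the minus strand.
TM7SF2: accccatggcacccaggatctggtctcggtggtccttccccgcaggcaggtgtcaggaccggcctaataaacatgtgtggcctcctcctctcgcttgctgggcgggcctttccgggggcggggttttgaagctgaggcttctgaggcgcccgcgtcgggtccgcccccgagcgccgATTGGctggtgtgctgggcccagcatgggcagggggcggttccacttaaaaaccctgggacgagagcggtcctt
FADS1: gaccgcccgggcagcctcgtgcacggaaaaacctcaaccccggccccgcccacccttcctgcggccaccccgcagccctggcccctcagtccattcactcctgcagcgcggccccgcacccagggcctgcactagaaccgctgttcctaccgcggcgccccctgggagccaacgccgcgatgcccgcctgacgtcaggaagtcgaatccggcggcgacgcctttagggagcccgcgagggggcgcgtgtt
MSMO1: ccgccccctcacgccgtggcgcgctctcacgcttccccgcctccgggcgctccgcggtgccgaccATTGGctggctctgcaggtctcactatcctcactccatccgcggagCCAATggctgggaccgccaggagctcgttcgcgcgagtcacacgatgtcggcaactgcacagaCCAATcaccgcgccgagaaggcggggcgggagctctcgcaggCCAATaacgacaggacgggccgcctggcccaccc
ELOVL6: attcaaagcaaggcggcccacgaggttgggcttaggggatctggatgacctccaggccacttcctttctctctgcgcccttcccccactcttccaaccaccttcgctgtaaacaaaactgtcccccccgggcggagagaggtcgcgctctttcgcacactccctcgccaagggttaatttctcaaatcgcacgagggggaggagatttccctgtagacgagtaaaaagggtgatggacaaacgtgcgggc
The MSMO1 window held 4 such matches, at -185 on the minus strand and at -139, -76 and -34 on the plus strand, counted from the start. The TM7SF2 window held 1, at -74 on the minus strand, and the FADS1 and ELOVL6 windows held none. Of 28 members with a promoter in the RefSeq table, 18 held CCAAT (64.3%), against 33.0% of 27305 promoters of all genes. The sterol response element core TCACNCCAC was in 1 of the 28, SREBF2 (3.6%, against 0.9%). The E-box CACGTG was in 3, SCAP, INSIG1 and ELOVL5 (10.7%, against 6.5%), and the E2F motif TTTNNCGC in 3, MVK, INSIG2 and ACACA (10.7%, against 5.9%). All 4 motifs were searched on both strands, each without regard to overlap with another. These are matches of letters within 250 bases and say nothing of binding.

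Of the 17 genes of sterol synthesis, 8 fell and 1 rose in Granta-519 (3 rose and none fell with spike-in scaling), against 18.2% lower and 22.4% higher over all genes tested. In JeKo-1 5 fell and 5 rose (2 and 3 with spike-in scaling, 5 and 8 with a correction for GC content), which is near the 27.8% lower and 36.7% higher over all genes. With spike-in scaling the shares of all genes were 0.837% lower and 55.5% higher in Granta-519 and 13.1% lower and 14% higher in JeKo-1. With the GC correction they were 26.7% lower and 36.6% higher in JeKo-1. The first steps join acetyl-CoA units. ACAT2, the cytosolic acetoacetyl-CoA thiolase, stood at 75.1, 69.0 and 77.2 RPKM in Granta-519 shCycD1, against 94.8, 117 and 122 RPKM in shCtrl. It stood at 27.0, 28.6 and 29.1 RPKM in JeKo-1 shCycD1, against 45.3, 47.1 and 43.5 RPKM in shCtrl. The groups did not overlap in either line, and ACAT2 fell by 0.58 ± 0.11 in Granta-519 (adjusted p = 0.00589) and by 0.67 ± 0.07 in JeKo-1 (adjusted p = 0.000169). ACAT2 overlaps the genes TCP1 and SOD2, and the strand used in counting is not given in the sources used here, so part of its reads may belong to those genes. HMGCS1, the cytosolic HMG-CoA synthase, stood at 51.0, 52.9 and 63.8 RPKM in Granta-519 shCycD1, against 73.6, 87.4 and 116 RPKM in shCtrl. It fell by 0.70 ± 0.17 there (adjusted p = 0.0177), a call lost without shCycD1 1 (-0.64) or shCycD1 2 (-0.67). In JeKo-1 HMGCS1 averaged 58.6 ± 6.62 RPKM in shCycD1 and 62.3 ± 4.46 RPKM in shCtrl (SD, n = 3 each) and the groups overlapped (change -0.09 ± 0.10, adjusted p = 0.461). With the GC correction it was called higher in JeKo-1 (0.22, adjusted p = 0.0356).

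Among the mevalonate kinases and decarboxylase, the changes of MVK and MVD differed between the lines as deposited, and that of PMVK was not called to differ. With spike-in scaling the differences of MVK (-0.37) and MVD (-0.15) were not called. MVK, the mevalonate kinase, averaged 11.4 ± 1.18 RPKM in Granta-519 shCycD1 and 14.4 ± 1.59 RPKM in shCtrl (SD, n = 3 each). It was not called there (-0.33 ± 0.11, adjusted p = 0.0568), though it was called lower without shCtrl 1 (-0.41) or shCycD1 3 (-0.41). MVD, the diphosphomevalonate decarboxylase that acts after PMVK, was not called in Granta-519 (0.08 ± 0.07, adjusted p = 0.388). In JeKo-1 MVK stood at 17.3, 20.5 and 20.2 RPKM in shCycD1, against 9.74, 10.7 and 10.2 RPKM in shCtrl. MVD stood at 60.3, 58.3 and 60.6 RPKM in JeKo-1 shCycD1, against 33.6, 25.9 and 24.0 RPKM in shCtrl. Every shCycD1 library of JeKo-1 was above every shCtrl library for both genes, and MVK rose by 0.89 ± 0.09 (adjusted p = 0.000169) and MVD by 1.101 ± 0.12 (adjusted p = 0.000227). PMVK, which acts between them, fell by 0.36 ± 0.08 in Granta-519 (adjusted p = 0.0115) and by 0.36 ± 0.08 in JeKo-1 (adjusted p = 0.00767). MVK overlaps the gene MMAB.

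The isoprenoid steps that follow fell or were not called. FDPS, the farnesyl diphosphate synthase, stood at 104, 101 and 101 RPKM in Granta-519 shCycD1, against 132, 148 and 158 RPKM in shCtrl. It averaged 108 ± 1.37 RPKM in JeKo-1 shCycD1 and 157 ± 10.7 RPKM in shCtrl (SD, n = 3 each). FDPS fell by 0.52 ± 0.08 in Granta-519 (adjusted p = 0.00296) and by 0.53 ± 0.07 in JeKo-1 (adjusted p = 0.000523), with no overlap of libraries in either line. RefSeq names 10 pseudogenes of FDPS, so reads of near-identical sequence may have been split. IDI1, the isopentenyl diphosphate isomerase, was not called in Granta-519 (-0.18 ± 0.11, adjusted p = 0.224) or JeKo-1 (-0.17 ± 0.09, adjusted p = 0.127). It has 3 named pseudogenes and overlaps WDR37.

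In squalene and lanosterol formation, the changes of FDFT1 and LSS differed between the lines as deposited, and that of SQLE was not called to differ. With spike-in scaling the differences of FDFT1 (0.15) and LSS (-0.079) were not called. FDFT1, the squalene synthase, stood at 55.1, 55.8 and 60.5 RPKM in Granta-519 shCycD1, against 74.4, 84.7 and 95.7 RPKM in shCtrl, and fell by 0.56 ± 0.10 (adjusted p = 0.00546). JeKo-1 shCycD1 held 189.6, 209 and 208 RPKM, against 183, 191 and 167 RPKM in shCtrl, overlapping groups with a change of 0.16 ± 0.08 (adjusted p = 0.0967). Quantile normalization called that JeKo-1 change higher (0.40, adjusted p = 0.00211). SQLE, the squalene monooxygenase, was not called in Granta-519 (-0.29 ± 0.14, adjusted p = 0.137) or JeKo-1 (-0.17 ± 0.11, adjusted p = 0.192). LSS, the lanosterol synthase that closes the sterol rings, averaged 22.8 ± 0.789 RPKM in Granta-519 shCycD1 and 24.5 ± 5.27 RPKM in shCtrl (SD, n = 3 each), overlapping groups with a change of -0.08 ± 0.15 (adjusted p = 0.715). In JeKo-1 LSS stood at 37.7, 35.5 and 39.1 RPKM in shCycD1, against 21.9, 22.4 and 17.2 RPKM in shCtrl. These groups did not overlap and LSS rose by 0.86 ± 0.11 (adjusted p = 0.000457).

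The steps that turn lanosterol into cholesterol held the rise shared by both lines. TM7SF2, which reduces the sterol intermediate left by the demethylase CYP51A1, stood at 127, 127 and 105 RPKM in Granta-519 shCycD1, against 65.6, 68.9 and 60.04 RPKM in shCtrl. It stood at 35.7, 28.3 and 24.7 RPKM in JeKo-1 shCycD1, against 15.8, 13.4 and 11.7 RPKM in shCtrl. In both lines the lowest shCycD1 library lay above the highest shCtrl library. TM7SF2 rose by 0.87 ± 0.10 in Granta-519 (adjusted p = 0.000865) and by 1.08 ± 0.16 in JeKo-1 (adjusted p = 0.000798), and its call held under all 16 alternatives run for Granta-519 and all 17 for JeKo-1, spike-in scaling included (1.65 and 0.99). CYP51A1 itself was not called in Granta-519 (-0.24 ± 0.17, adjusted p = 0.286) or JeKo-1 (0.20 ± 0.10, adjusted p = 0.116), although the JeKo-1 groups did not overlap. With the GC correction it was called higher in JeKo-1 (0.47, adjusted p = 0.00141). RefSeq names 3 pseudogenes of CYP51A1.

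MSMO1, the methyl sterol monooxygenase, stood at 48.2, 38.4 and 58.1 RPKM in Granta-519 shCycD1, against 63.3, 73.3 and 97.3 RPKM in shCtrl. It stood at 16.1, 16.5 and 18.1 RPKM in JeKo-1 shCycD1, against 35.1, 39.3 and 42.0 RPKM in shCtrl. The groups did not overlap in either line, but the gap between them was narrow in Granta-519, where shCycD1 3 and shCtrl 1 lay side by side. In Granta-519 MSMO1 fell by 0.68 ± 0.20 (adjusted p = 0.0313). This call was lost without shCtrl 2 (-0.72) or 3 (-0.51), without shCycD1 1 (-0.69) or 2 (-0.53), with library weights (-0.37) and with no filter on low values (adjusted p = 0.061). In JeKo-1 MSMO1 fell by 1.17 ± 0.09 (adjusted p = 4.51e-05). EBP, the sterol isomerase, stood at 48.8, 44.6 and 50.8 RPKM in Granta-519 shCycD1, against 73.9, 82.5 and 89.3 RPKM in shCtrl. It stood at 29.8, 33.9 and 32.3 RPKM in JeKo-1 shCycD1, against 52.4, 59.2 and 52.2 RPKM in shCtrl. The groups were apart in both lines, and EBP fell by 0.76 ± 0.09 in Granta-519 (adjusted p = 0.00111), where spike-in scaling gave a change of 0.012. In JeKo-1 it also fell by 0.76 ± 0.09 (adjusted p = 0.000221), and spike-in scaling gave a change of -0.86.

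The other late enzymes were called in at most 1 of the lines. NSDHL, the sterol dehydrogenase that acts with MSMO1, averaged 6.52 ± 0.526 RPKM in Granta-519 shCycD1 and 8.65 ± 0.749 RPKM in shCtrl (SD, n = 3 each). It fell by 0.38 ± 0.10 there (adjusted p = 0.0201), a call lost without shCtrl 3 (-0.32), shCycD1 1 (-0.38) or shCycD1 2 (-0.33), and was at 0.01 ± 0.10 in JeKo-1 (adjusted p = 0.921). HSD17B7, the ketoreductase of the same step, was at -0.44 ± 0.16 in Granta-519 (adjusted p = 0.0616), where its groups did not overlap, and at 0.11 ± 0.11 in JeKo-1 (adjusted p = 0.424). It was called lower in Granta-519 with quantile normalization (-0.47, adjusted p = 0.0283) and higher in JeKo-1 with the GC correction (0.37, adjusted p = 0.0161). It has 2 named pseudogenes. DHCR7, the reductase of the last step, averaged 68.6 ± 3.48 RPKM in Granta-519 shCycD1 and 72.3 ± 12.7 RPKM in shCtrl (SD, n = 3 each), overlapping groups with a change of -0.06 ± 0.13 (adjusted p = 0.72). In JeKo-1 DHCR7 stood at 33.5, 36.2 and 39.0 RPKM in shCycD1, against 20.02, 20.01 and 18.2 RPKM in shCtrl. These groups were clearly apart and DHCR7 rose by 0.88 ± 0.09 (adjusted p = 0.000115).

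**Figure D2:**
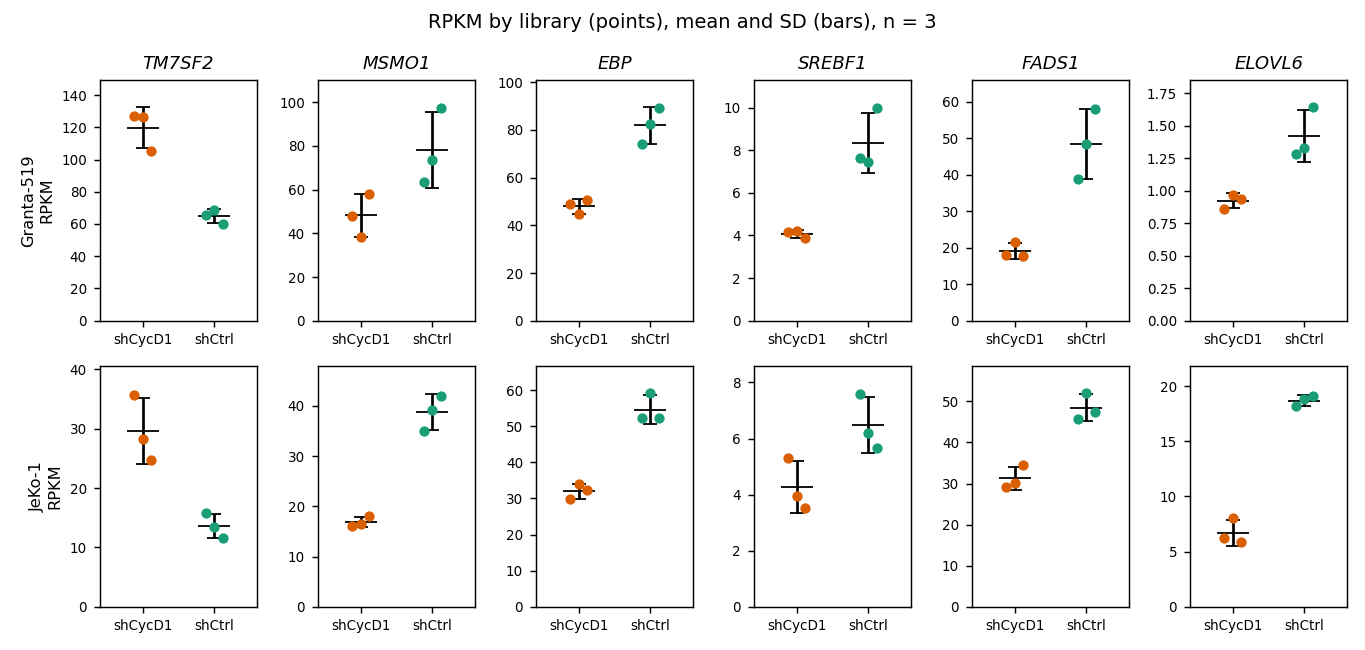
RPKM of TM7SF2, MSMO1, EBP, SREBF1, FADS1 and ELOVL6 in each library (points), with the mean and SD (bars, n = 3), for Granta-519 (top) and JeKo-1 (bottom), shCycD1 left of shCtrl; each panel has its own axis from 0. In all 12 panels the shCycD1 and shCtrl points do not overlap. For ELOVL6 in Granta-519 this was fixed by its pass of the filter through shCtrl alone. TM7SF2 is higher in shCycD1 and the other 5 are lower as deposited, none of which is called lower in Granta-519 with spike-in scaling.

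Of the 6 regulators and carriers, 2 fell and none rose in Granta-519 (4 rose and none fell with spike-in scaling), against 18.2% lower and 22.4% higher over all genes. In JeKo-1 3 fell and 2 rose (1 and 1 with spike-in scaling), against 27.8% and 36.7%. With spike-in scaling the shares of all genes were 0.837% lower and 55.5% higher in Granta-519 and 13.1% lower and 14% higher in JeKo-1. SREBF1, whose protein mainly drives fatty acid genes, stood at 4.17, 4.21 and 3.87 RPKM in Granta-519 shCycD1, against 7.63, 7.45 and 9.97 RPKM in shCtrl. It stood at 5.30, 3.97 and 3.53 RPKM in JeKo-1 shCycD1, against 7.60, 6.20 and 5.68 RPKM in shCtrl. The groups were wide apart in Granta-519 and nearly met in JeKo-1. SREBF1 fell by 0.94 ± 0.12 in Granta-519 (adjusted p = 0.00146) and by 0.56 ± 0.16 in JeKo-1 (adjusted p = 0.0196). The JeKo-1 call was lost without shCtrl 1 (-0.45), shCycD1 2 (-0.52) or shCycD1 3 (-0.45), and with the GC correction the value was -1.01. SREBF1 overlaps the gene RAI1.

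SREBF2, whose protein mainly drives sterol genes, and SCAP, the escort of both proteins, had overlapping groups in Granta-519. SREBF2 averaged 43.1 ± 3.78 RPKM in Granta-519 shCycD1 and 45.2 ± 8.09 RPKM in shCtrl (SD, n = 3 each; change -0.06 ± 0.14, adjusted p = 0.779). SCAP averaged 4.82 ± 0.332 RPKM in Granta-519 shCycD1 and 4.61 ± 0.568 RPKM in shCtrl (SD, n = 3 each; change 0.06 ± 0.11, adjusted p = 0.683). In JeKo-1 neither gene's groups overlapped. SREBF2 stood at 124, 121 and 129 RPKM in JeKo-1 shCycD1, against 88.8, 84.6 and 84.0 RPKM in shCtrl. SCAP stood at 22.04, 24.5 and 21.6 RPKM in JeKo-1 shCycD1, against 12.1, 12.1 and 10.7 RPKM in shCtrl. Every shCycD1 library was above every shCtrl library, and SREBF2 rose by 0.54 ± 0.06 (adjusted p = 0.000274) and SCAP by 0.93 ± 0.09 (adjusted p = 0.000112). With spike-in scaling both were called higher in Granta-519, SREBF2 at 0.71 and SCAP at 0.76, and SREBF2 was no longer called in JeKo-1 (0.44, adjusted p = 0.382).

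INSIG1, which retains SCAP in the endoplasmic reticulum and is itself a target of the pathway, stood at 80.4, 82.7 and 101 RPKM in Granta-519 shCycD1, against 115, 137 and 168 RPKM in shCtrl. It stood at 30.7, 28.6 and 34.2 RPKM in JeKo-1 shCycD1, against 52.7, 45.5 and 55.5 RPKM in shCtrl. Its groups did not overlap in either line. INSIG1 fell by 0.65 ± 0.16 in Granta-519 (adjusted p = 0.0152, lost without shCycD1 1, -0.59) and by 0.71 ± 0.10 in JeKo-1 (adjusted p = 0.000784). Its paralogue INSIG2 was not called in Granta-519 (0.22 ± 0.12, adjusted p = 0.183) or JeKo-1 (-0.07 ± 0.22, adjusted p = 0.79), though it was called higher in Granta-519 without shCtrl 3 (0.33). STARD4, a carrier of cholesterol between membranes, had overlapping groups in Granta-519 (-0.03 ± 0.21, adjusted p = 0.916). In JeKo-1 STARD4 averaged 4.47 ± 0.234 RPKM in shCycD1 and 7.85 ± 1.44 RPKM in shCtrl (SD, n = 3 each) and fell by 0.74 ± 0.13 (adjusted p = 0.0022), though the GC correction ended that call (-0.23, adjusted p = 0.0833).

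Of the 9 genes of fatty acid synthesis, 5 fell and 1 rose in Granta-519 (2 rose and none fell with spike-in scaling), against 18.2% lower and 22.4% higher over all genes, with ELOVL6 among the 5. In JeKo-1 5 fell and 2 rose (1 and none with spike-in scaling, 5 and none with the GC correction), against 27.8% and 36.7%. With spike-in scaling the shares of all genes were 0.837% lower and 55.5% higher in Granta-519 and 13.1% lower and 14% higher in JeKo-1. With the GC correction they were 26.7% lower and 36.6% higher in JeKo-1. The enzymes that make the saturated chain were called differently in the lines. ACLY, which makes cytosolic acetyl-CoA from citrate, was not called in Granta-519 (-0.19 ± 0.10, adjusted p = 0.159). In JeKo-1 it averaged 58.5 ± 4.53 RPKM in shCycD1 and 73.0 ± 0.822 RPKM in shCtrl (SD, n = 3 each) and fell by 0.32 ± 0.08 (adjusted p = 0.00753). ACACA, the acetyl-CoA carboxylase, stood at 1.28, 1.96 and 1.55 RPKM in Granta-519 shCycD1, against 2.24, 2.31 and 3.04 RPKM in shCtrl. It fell by 0.53 ± 0.16 (adjusted p = 0.0329), but the call was lost without shCtrl 1 (-0.60) or 3 (-0.42), without shCycD1 1 (-0.42) or 3 (-0.52), and with no filter on low values (adjusted p = 0.0622). In JeKo-1 ACACA was at -0.06 ± 0.11 (adjusted p = 0.648). ACACA overlaps C17orf78.

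FASN, the fatty acid synthase, stood at 77.5, 103 and 85.9 RPKM in Granta-519 shCycD1, against 123, 96.4 and 125 RPKM in shCtrl. It stood at 47.4, 47.8 and 39.7 RPKM in JeKo-1 shCycD1, against 29.9, 29.5 and 24.6 RPKM in shCtrl. The groups overlapped in Granta-519, whereas in JeKo-1 all shCycD1 libraries were above all shCtrl libraries. In Granta-519 FASN was not called (-0.37 ± 0.14, adjusted p = 0.0764), although it was called lower without shCtrl 2 (-0.49) or shCycD1 2 (-0.48) and with library weights (-0.51). In JeKo-1 FASN rose by 0.67 ± 0.11 (adjusted p = 0.00142), though the GC correction ended that call (0.13, adjusted p = 0.262). SCD, the desaturase that makes monounsaturated chains, stood at 125, 131 and 130.1 RPKM in Granta-519 shCycD1, against 160.4, 185 and 255 RPKM in shCtrl. SCD fell by 0.61 ± 0.16 (adjusted p = 0.0234), a call lost without shCycD1 1 (-0.59), 2 (-0.62) or 3 (-0.61), and was at -0.16 ± 0.09 in JeKo-1 (adjusted p = 0.174). SCD has 1 named pseudogene.

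The 3 elongases were called in different ways. ELOVL1 stood at 160.4, 131 and 138 RPKM in Granta-519 shCycD1, against 117, 113 and 105 RPKM in shCtrl. It stood at 19.0, 20.4 and 21.8 RPKM in JeKo-1 shCycD1, against 15.2, 16.7 and 14.6 RPKM in shCtrl. The groups did not overlap in either line. ELOVL1 rose by 0.36 ± 0.09 in Granta-519 (adjusted p = 0.0217, lost without shCtrl 3, 0.32, or shCycD1 1, 0.27) and by 0.39 ± 0.09 in JeKo-1 (adjusted p = 0.00695, lost with the GC correction, 0.19). ELOVL5, which lengthens polyunsaturated chains, was not called in Granta-519 (0.04 ± 0.09, adjusted p = 0.777). In JeKo-1 it averaged 27.0 ± 1.76 RPKM in shCycD1 and 41.5 ± 2.92 RPKM in shCtrl (SD, n = 3 each) and fell by 0.61 ± 0.08 (adjusted p = 0.00061). ELOVL6, which lengthens the saturated and monounsaturated products of FASN and SCD, stood near the testing minimum in Granta-519, at 0.861, 0.970 and 0.939 RPKM in shCycD1, against 1.28, 1.33 and 1.65 RPKM in shCtrl. The change there was -0.43 ± 0.10. Because the filter let the gene in through shCtrl alone, its test is taken from the fit with no filter on low values (adjusted p = 0.026). The call of the filtered fit was lost without shCycD1 1 (-0.39) or 3 (-0.43). In JeKo-1 ELOVL6 stood at 6.23, 8.02 and 5.86 RPKM in shCycD1, against 18.2, 18.8 and 19.1 RPKM in shCtrl. The highest shCycD1 library lay far below the lowest shCtrl library, and ELOVL6 fell by 1.43 ± 0.12 (adjusted p = 6.34e-05), the largest fall among the 32 genes in JeKo-1.

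FADS1 and FADS2 are the desaturases of polyunsaturated fatty acids, and the fall of FADS1 was the largest of the 32 genes in Granta-519. FADS1 stood at 18.1, 21.6 and 17.7 RPKM in Granta-519 shCycD1, against 38.8, 48.4 and 58.0 RPKM in shCtrl. It stood at 29.2, 30.0 and 34.5 RPKM in JeKo-1 shCycD1, against 45.8, 52.1 and 47.5 RPKM in shCtrl. The groups were apart in both lines, and FADS1 fell by 1.31 ± 0.15 in Granta-519 (adjusted p = 0.00099) and by 0.63 ± 0.09 in JeKo-1 (adjusted p = 0.000791). With spike-in scaling FADS1 was at -0.54 in Granta-519 and was not called (adjusted p = 0.127). FADS2 stood at 19.0, 22.03 and 19.7 RPKM in Granta-519 shCycD1, against 32.5, 35.3 and 49.8 RPKM in shCtrl, and fell by 0.91 ± 0.16 (adjusted p = 0.00478). In JeKo-1 FADS2 averaged 49.3 ± 2.31 RPKM in shCycD1 and 57.1 ± 1.29 RPKM in shCtrl (SD, n = 3 each) and fell by 0.21 ± 0.07 (adjusted p = 0.0271). That JeKo-1 call was lost without shCtrl 1 (-0.20) or 2 (-0.20), without shCycD1 1 (-0.19) or 3 (-0.20), and with quantile normalization (-0.15), and was larger with the GC correction (-0.50). FADS1 and FADS2 overlap each other in the annotation, so reads of the shared stretch cannot be assigned without the strand.

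The change was then compared between the lines in a joint fit, as the Granta-519 change minus the JeKo-1 change. The difference was called for 15 of the 32 genes (46.9%), against 41.9% of the 10654 genes tested in both lines, a share near that of all genes. Of these, 13 were below 0 (40.6%, against 22.6% of all genes) and 2 were above 0 (6.2%, against 19.3%). The largest differences below 0 were those of MVK (-1.21 ± 0.15, adjusted p = 7.93e-05), FASN (-1.04 ± 0.19, adjusted p = 0.0012), MVD (-1.02 ± 0.14, adjusted p = 0.000232), DHCR7 (-0.95 ± 0.16, adjusted p = 0.000626), LSS (-0.94 ± 0.20, adjusted p = 0.00292) and SCAP (-0.87 ± 0.14, adjusted p = 0.000553). All 6 rose in JeKo-1 and were not called in Granta-519. FADS1 and FADS2 fell in both lines and fell further in Granta-519, with differences of -0.68 ± 0.19 (adjusted p = 0.0134) and -0.70 ± 0.18 (adjusted p = 0.00948). The 2 above 0 were the elongases ELOVL6 (0.998 ± 0.16, adjusted p = 0.00056), which fell further in JeKo-1, and ELOVL5 (0.65 ± 0.12, adjusted p = 0.00152). EBP, PMVK and FDPS, which fell in both lines, had differences close to 0 with an SE of 0.11 to 0.13 (adjusted p of 0.957 to 0.997). Under spike-in scaling 5 differences were called above 0 and 0 below, without a share of all genes to set beside them. That scaling put the median change of all genes at 0.74 in Granta-519 and -0.01 in JeKo-1. Differences of all genes thus moved up together, and these counts say little of the 32 genes. The 5 were ELOVL6 (1.62) and ELOVL5 (1.5), called in both fits, and STARD4 (1.55), MSMO1 (1.36) and INSIG2 (1.13). All 13 calls below 0 were lost, with MVK at -0.37 (adjusted p = 0.495), FASN at -0.16, MVD at -0.15, DHCR7 at -0.074, LSS at -0.079 and SCAP at -0.078.

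**Figure D3:**
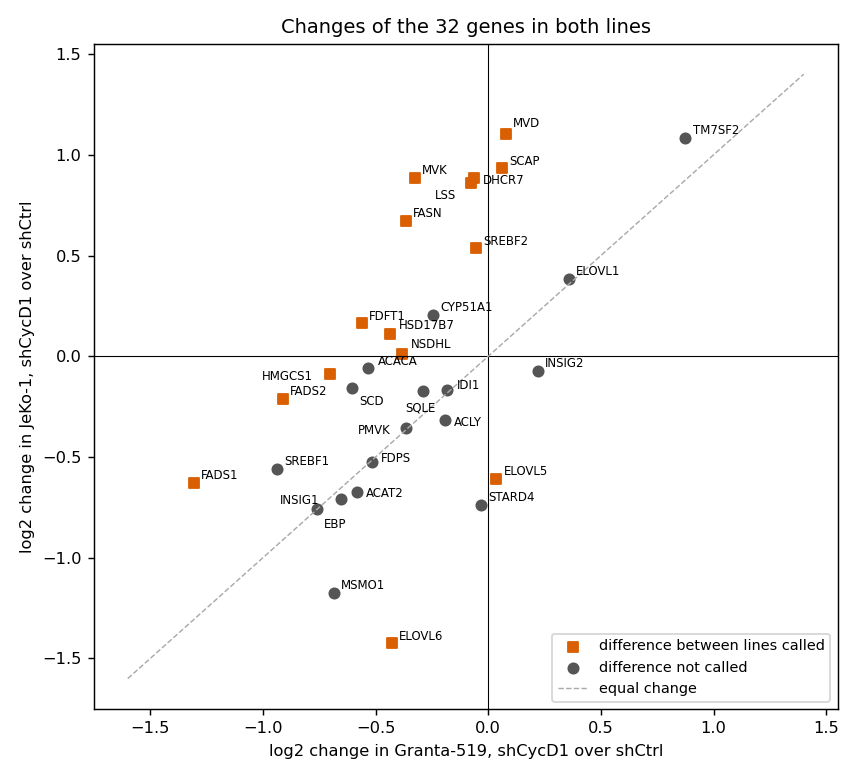
Log2 change in Granta-519 (horizontal) against JeKo-1 (vertical), shCycD1 over shCtrl, for the 32 genes; squares mark the 15 genes whose difference between the lines was called, circles the others, and the dashed line equal change. Most squares lie above the line, where the change was more positive in JeKo-1. With spike-in scaling the Granta-519 values of all genes move up together, and none of the calls above the line remains. The squares of ELOVL5 and ELOVL6 stay called. The 5 differences called with that scaling are all above 0, on the other side of the line.

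In the plot of both changes the 10 genes that fell in both lines lie at the lower left and TM7SF2 at the upper right. The GC content of the longest transcript was higher in the genes that rose. In JeKo-1 its median was 58.3% (55.4 to 65.3%) for the 9 genes that rose, 50.2% (34.2 to 62.8%) for the 13 that fell and 44.1% for the 10 not called, against 48.7% over all symbols with a value. In Granta-519 the median was 59.8% for the 2 that rose, 50.1% for the 15 that fell and 52.2% for those not called. With a loess correction for GC content in each library, 10 genes were called higher and 12 lower in JeKo-1. Over all 10888 genes tested there, 36.6% were called higher and 26.7% lower. Between the lines 12 differences were called, and the share of all genes for them is not given here. Of the 10 called higher in JeKo-1, 7 were among the 9 that rose without the correction, and HMGCS1 (0.22), CYP51A1 (0.47) and HSD17B7 (0.37) were added. The same 2 genes were called higher and the same 15 lower in Granta-519. In JeKo-1 the corrected values of the 9 risen genes were smaller. Still called were MVK (0.60), MVD (0.62), LSS (0.58), DHCR7 (0.60), SCAP (0.51), TM7SF2 (0.59) and SREBF2 (0.29, against 0.54 without the correction), while FASN (0.13, adjusted p = 0.262) and ELOVL1 (0.19, adjusted p = 0.121) were not.

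Among the libraries, Granta-519 shCtrl 3 stood apart for these genes. It was the highest of its group in 28 of the 32, against 43.6% of all genes tested, and shCtrl 1 was the lowest in 22 of the 32, against 23.6% of all genes. The median spread of the 32 genes within a group (SD over mean) was 7.34% in Granta-519 shCycD1 and 14.5% in shCtrl, and 7.92% in JeKo-1 shCycD1 and 7.23% in shCtrl. Without Granta-519 shCtrl 3 the line had 12 genes lower and 2 higher, with a median change of -0.29. Of the 12669 genes tested, 1923 were then called lower and 2555 higher, against 2303 and 2840 with all 6 libraries. Granta-519 shCycD1 1 was the lowest of its group in 17 of the 32, against 35.8% of all genes. Without this library the line had 8 genes lower and 1 higher, with a median change of -0.31. Calls over all genes fell too, to 1606 lower and 1906 higher. In JeKo-1, shCycD1 1 was the lowest of its group in 21 of the 32, against 41.5% of all genes, and leaving out any library gave 11 to 13 genes lower and 9 higher. Over all genes such fits called 2868 to 3228 lower and 3869 to 4207 higher, against 3303 and 4358 with all 6 libraries.

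**Figure D4:**
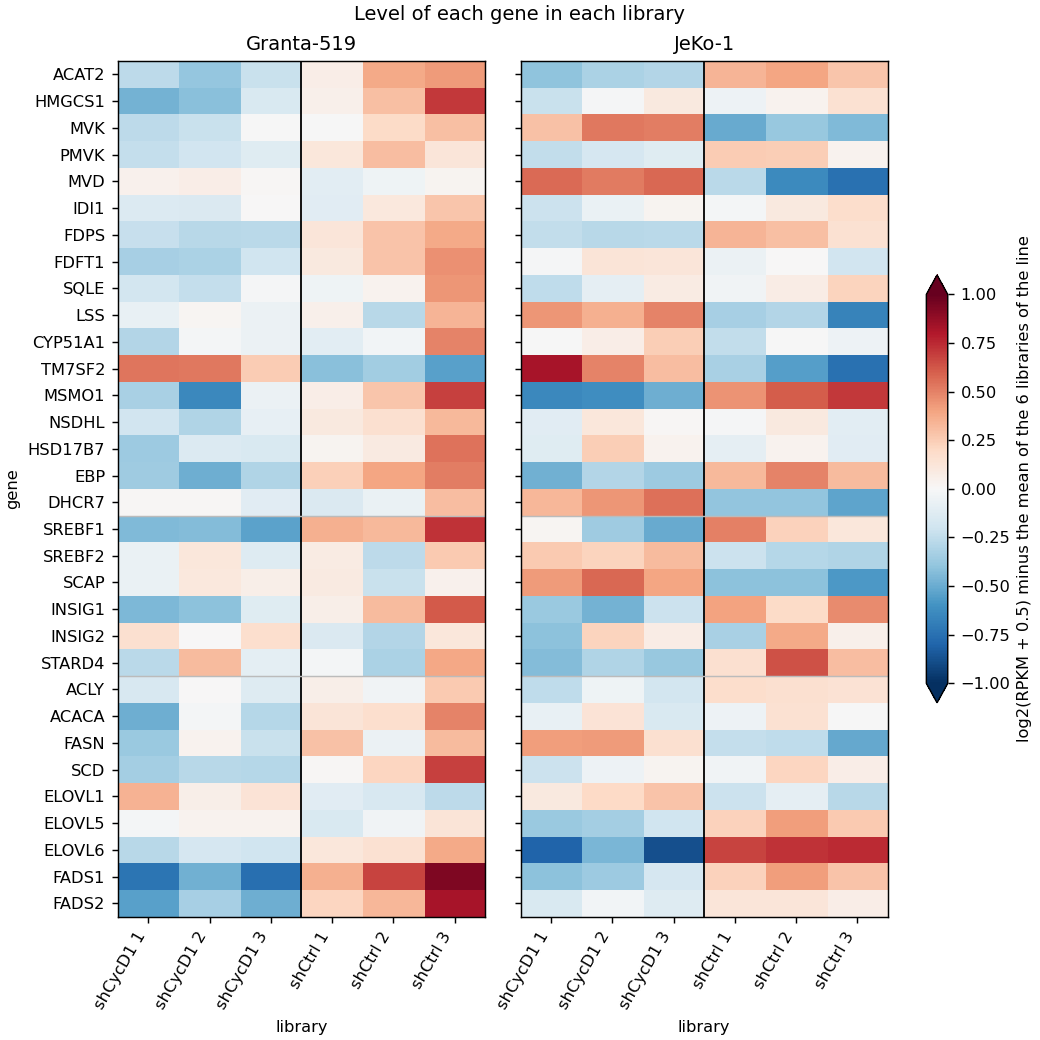
Level of each of the 32 genes in each library, as log2(RPKM + 0.5) minus the mean of the 6 libraries of the line (red above, blue below), shCycD1 left of shCtrl, in rows grouped as sterol synthesis, regulators and carrier, and fatty acid synthesis. Granta-519 shCtrl 3 is the reddest column, being the highest of its group in 28 of the 32 genes, and JeKo-1 has rows of both directions; with spike-in scaling the Granta-519 columns of shCycD1 would stand higher.

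The neighbouring lipid pathways are described by their counts of calls beside the shares of all genes tested (22.4% higher and 18.2% lower in Granta-519, 36.7% and 27.8% in JeKo-1). With spike-in scaling these shares were 55.5% higher and 0.837% lower in Granta-519 and 14% and 13.1% in JeKo-1. With the GC correction they were 36.6% higher and 26.7% lower in JeKo-1. For sterol sensing, esterification and transport, 8 of the 18 genes tested rose and 4 fell in Granta-519 (13 and 0 with spike-in scaling), while in JeKo-1 10 of 19 rose and 5 fell (6 and 3). In Granta-519 the largest rises were those of LIPA, the lysosomal acid lipase that frees cholesterol from its esters (20.9 ± 0.944 RPKM in shCycD1, 10.1 ± 1.104 RPKM in shCtrl, change 1.02), MYLIP, a ubiquitin ligase induced by sterols (0.83), and NPC1, which exports cholesterol from lysosomes (0.70). In JeKo-1 they were those of NPC2, the partner of NPC1 (114 ± 18.7 RPKM in shCycD1, 38.1 ± 3.31 RPKM in shCtrl, change 1.56), NR1H2, a sterol-activated nuclear receptor (1.41), and MBTPS1, the protease that first cleaves the SREBF proteins (1.20). SOAT1, which esterifies cholesterol for storage, fell by 0.85 in Granta-519 (-0.12 and not called with spike-in scaling) and by 1.48 in JeKo-1. TMEM97, a protein of cholesterol handling, fell by 0.78 in Granta-519 (-0.01 with spike-in scaling) and by 1.02 in JeKo-1. ERLIN1 in Granta-519 (-0.79) and FAF2 in JeKo-1 (-1.11), both of endoplasmic reticulum protein degradation, made up the remaining largest falls.

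In the isoprenoid branch, which draws on farnesyl diphosphate for protein prenylation, ubiquinone and dolichol, 2 of 11 genes tested rose and 2 fell in Granta-519 (4 and 0 with spike-in scaling), while in JeKo-1 1 of 12 rose and 6 fell (0 and 2 with spike-in scaling, 3 and 4 with the GC correction). RABGGTA, a prenyltransferase subunit, rose in Granta-519 (0.72) and JeKo-1 (0.56), and FNTA, another, rose by 0.40 in Granta-519. COQ2 (-0.55), of ubiquinone synthesis, and ICMT (-0.53), which methylates prenylated proteins, fell in Granta-519. In JeKo-1 NUS1, of dolichol synthesis, fell to 5.58 ± 0.115 RPKM in shCycD1, against 13.5 ± 0.736 RPKM in shCtrl (-1.20), followed by PDSS1 (-0.92), of ubiquinone synthesis, and PGGT1B (-0.59), a prenyltransferase subunit.

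For fatty acid activation, elongation and lipid assembly, 1 of 20 genes tested rose and 6 fell in Granta-519 (8 and 0 with spike-in scaling), while in JeKo-1 7 of 22 rose and 7 fell (1 and 5). FADS3, which lies beside FADS1 and FADS2 in the genome, fell by 0.77 in Granta-519 and rose in JeKo-1 (69.8 ± 7.73 RPKM in shCycD1, 32.01 ± 2.97 RPKM in shCtrl, change 1.11). FABP5, a fatty acid binding protein, fell in Granta-519 (-0.71) and JeKo-1 (-1.22), as did PTPLAD1, a dehydratase of the elongation cycle (-0.68 and -1.15). DGAT2, of triglyceride synthesis, rose by 0.32 in Granta-519. In JeKo-1 AGPAT2, of phosphatidic acid synthesis, rose by 0.78, ACSS2, which makes acetyl-CoA from acetate, by 0.73, and PTPLB, another elongation dehydratase, fell by 1.34. For fatty acid oxidation, 6 of 18 rose and 3 fell in Granta-519 (13 and 0 with spike-in scaling), while in JeKo-1 6 of 18 rose and 7 fell (1 and 3). HADH fell in Granta-519 (-0.97) and in JeKo-1 (-1.58, with 39.3 ± 2.58 RPKM in shCycD1, 119 ± 1.72 RPKM in shCtrl), and HADHA likewise (-0.51 and -0.98). ACAA2 fell by 0.35 in Granta-519 and ETFDH by 0.87 in JeKo-1, while HADHB (0.66) and SLC25A20 (0.47) rose in Granta-519 and ACADS (0.72) and ECHS1 (0.70) in JeKo-1. These 6 genes, HADH and HADHA encode enzymes or carriers of mitochondrial oxidation. PPARD, a nuclear receptor of this pathway, rose in Granta-519 (0.49) and JeKo-1 (1.29). In Granta-519 all named falls of these 4 lists lost their call with spike-in scaling, and those of COQ2 (0.19), ICMT (0.24), FABP5 (0.06), PTPLAD1 (0.08), HADHA (0.25) and ACAA2 (0.42) turned above 0. In JeKo-1 the calls of RABGGTA, PGGT1B, AGPAT2 and ACADS were lost with the GC correction and with spike-in scaling, and those of ACSS2 and ECHS1 with spike-in scaling.

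**Figure D5:**
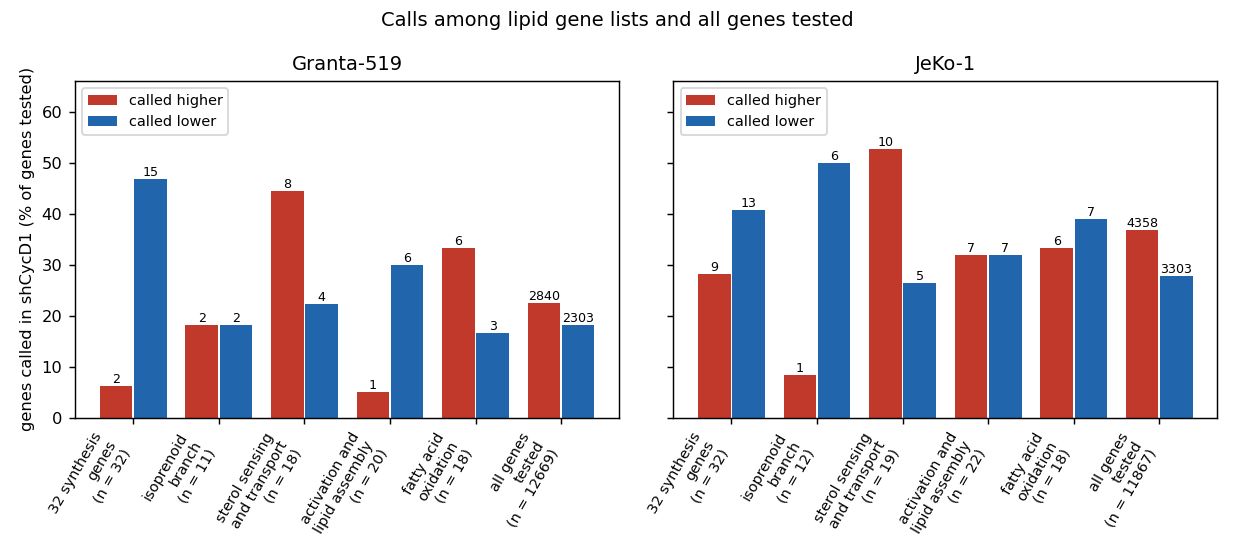
Share of genes called higher (red) and lower (blue) in shCycD1, as a percent of the genes tested, for the 32 synthesis genes, the 4 neighbouring lipid lists and all genes tested, in Granta-519 (left) and JeKo-1 (right), with the number of genes above each bar. The synthesis genes have 15 lower and 2 higher in Granta-519 (0 and 9 with spike-in scaling) and the sterol sensing and transport list has 8 higher and 4 lower. With that scaling, which is not drawn, 0.837% of all genes were called lower and 55.5% higher in Granta-519.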

How the data were processed

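RNA of 12 libraries was measured, 3 for each of the 4 groups, named and numbered in the sample titles. For each line the authors deposited 1 table, titled as RPKM; FastQC, TopHat2 2.1.1 and limma 3.9 are named, without roles, in the submitters' processing notes, with builds GRCh37 and hg19. Which counter, strand setting and annotation were used is not given in the sources used here. The deposited values were taken to be on the natural log scale, as ln(RPKM + 1). In Granta-519, low values of genes under 5000 bases were whole multiples of a step in 81.6 to 84.1% of cases with the natural log and the genomic span (tolerance 0.1), against 46.2 to 52.2% with base 2 and 44.1 to 48.0% with base 10. The step was the best of a search. The chance share thus lies above the 20% of a step fixed in advance and was not measured. In JeKo-1 the base is inferred, not settled, as no base gave over 30.9%; the spread of the spike-ins relative to Granta-519 was 0.98 with the natural log, 0.74 with base 2 and 2.11 with base 10. Depth is not known from these values.

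limma 3.58.1 (R 4.3.3, trended empirical Bayes) was fitted to each line by itself on log2(RPKM + 0.5), which understates changes of low genes, for symbols at 1 RPKM or more in 3 of 6 libraries, with Benjamini-Hochberg adjustment over all of them. A joint fit of 12 libraries tested the difference between the lines. The fit was tested on simulated data with 100 genes changed at each size in each line. It recovered 37% of log2 changes of 0.5 and 83% of changes of 1 in Granta-519 (12669 genes), and 27% and 79% in JeKo-1 (11867 genes). Far more genes were called in the real data, and the adjusted p depends on that share. The recovery in the real data may therefore differ and was not measured. The members, the related lists, the markers and the tests were chosen with earlier results of these data known. The text names all 32 members, CCND1, and of each related list the 3 called genes with the largest rise and the 3 with the largest fall in each line. GC content was matched by symbol for 89.5% of 23708 symbols and 32 of 32 members; promoters come from RefSeq (GRCh38.p14), with an entry for 28 members.

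The main fit has no replicate term in either line. Deviations of libraries with the same number correlated at 0.01, -0.12 and 0.03 in Granta-519. In JeKo-1 they correlated at 0.19, 0.09 and 0.10, and all 6 libraries correlated best with their own number. A replicate term there raised the calls over all genes from 4358 higher and 3303 lower to 4902 and 3806. Alternatives were 2 other pseudocounts, 2 other filters, quantile normalization, scaling by 53 (Granta-519) or 55 (JeKo-1) spike-ins, GC correction, library weights, symbols on several rows left out, a replicate term, the JeKo-1 table read as log2, and each library left out.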

Additional observations from a re-analysis of the deposited data

Results flagged for a closer look

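The change on silencing differed between Granta-519 and JeKo-1, by the interaction term of the joint limma fit, for 15 of the 32 genes, against 41.9% of all genes tested in both lines. Values are the Granta-519 log2 change minus the JeKo-1 log2 change. In sterol synthesis they were HMGCS1 (-0.61, adjusted p = 0.0387), MVK (-1.21, adjusted p = 7.93e-05), MVD (-1.02, adjusted p = 0.000232), FDFT1 (-0.73, adjusted p = 0.00119), LSS (-0.94, adjusted p = 0.00292), NSDHL (-0.40, adjusted p = 0.0343), HSD17B7 (-0.54, adjusted p = 0.0451) and DHCR7 (-0.95, adjusted p = 0.000626). Among the regulators they were SREBF2 (-0.59, adjusted p = 0.0116) and SCAP (-0.87, adjusted p = 0.000553). Among the fatty acid genes they were FASN (-1.04, adjusted p = 0.0012), FADS1 (-0.68, adjusted p = 0.0134), FADS2 (-0.70, adjusted p = 0.00948), ELOVL5 (0.65, adjusted p = 0.00152) and ELOVL6 (0.998, adjusted p = 0.00056).

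The calls of HMGCS1, HSD17B7 and NSDHL were the least stable. Besides spike-in scaling, they were lost with library weights (-0.35, -0.41 and -0.29) and without Granta-519 shCtrl 3 (-0.43, -0.38 and -0.33), among other libraries. The call of FADS1 was lost with library weights (-0.51), and those of FADS2 (-0.43), FASN (-0.49), SREBF2 (-0.37) and NSDHL (-0.36, adjusted p = 0.0531) with the GC correction. With spike-in scaling all 13 calls below 0 were lost. The part of GC content, of culture medium and of single libraries in these differences was not tested.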

How the results depend on the processing

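With spike-in scaling the counts became 9 higher and 0 lower in Granta-519, 4 higher and 4 lower in JeKo-1, 5 differences between the lines (5 above 0 and 0 below, against 2 and 13 without it), 0 lower in both lines and 3 higher in both. Of all genes, 55.5% were called higher and 0.837% lower in Granta-519 with it, and 14% and 13.1% in JeKo-1. The shares of all genes for the differences and for calls in both lines are not given under this scaling. Granta-519 changes called in either fit that turned above 0 with spike-in scaling were those of ACAT2 (0.19), HMGCS1 (0.073), PMVK (0.41), FDPS (0.26), FDFT1 (0.21), MSMO1 (0.088), NSDHL (0.34), EBP (0.012), DHCR7 (0.71), SREBF2 (0.71), INSIG1 (0.12), STARD4 (0.73), ACACA (0.077), SCD (0.17) and ELOVL6 (0.10). Another 8, called in neither fit, also turned above 0: MVK (0.42), IDI1 (0.60), SQLE (0.48), LSS (0.68), CYP51A1 (0.53), HSD17B7 (0.23), ACLY (0.58) and FASN (0.41). Called differences that turned above 0 were those of HMGCS1 (0.26), FDFT1 (0.15), NSDHL (0.43), HSD17B7 (0.22), SREBF2 (0.28), FADS1 (0.19) and FADS2 (0.16). Another 10, called in neither fit, also turned above 0: ACACA (0.23), CYP51A1 (0.42), EBP (0.87), ELOVL1 (0.85), IDI1 (0.87), PMVK (0.86), SCD (0.43), SQLE (0.76), SREBF1 (0.42) and TM7SF2 (0.66). Scaling by a factor per library moves every gene of that library alike, and the all-gene median with it was 0.74 in Granta-519 and -0.01 in JeKo-1. With the GC correction HMGCS1 turned to 0.22 in JeKo-1 and 1 gene was higher in both lines (ELOVL1 was lost in JeKo-1), and the cause was not tested. Reading the JeKo-1 table as log2 put the CCND1 difference at -0.16. The base sets the size of the JeKo-1 changes. With base 2 the median change of the 32 genes there was -0.09, against -0.12 with the natural log.

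Leaving out 1 library gave 1 to 2 genes higher and 8 to 15 lower in Granta-519, 9 higher and 11 to 13 lower in JeKo-1, 12 to 16 differences, 7 to 10 lower in both lines and 1 to 2 higher in both, with fewer libraries in each such fit. Over all genes these fits called 1906 to 2707 higher and 1606 to 2509 lower of 12669 in Granta-519. In JeKo-1 they called 3869 to 4207 higher and 2868 to 3228 lower of 11867. The 8 lower and 1 higher came without Granta-519 shCycD1 1, and 1 higher in both also without Granta-519 shCtrl 3. With the replicate number as a block (replicate block) the counts were 2 higher and 16 lower in Granta-519, 10 higher and 15 lower in JeKo-1, and 17 differences, by the gain of MVK (-0.33, adjusted p = 0.0391) in Granta-519, of IDI1 (-0.17, adjusted p = 0.0243), SQLE (-0.17, adjusted p = 0.0257) and CYP51A1 (0.20, adjusted p = 0.0418) in JeKo-1, and of the CYP51A1 (-0.45) and MSMO1 (0.49) differences. Over all genes the block gave 2285 higher and 1903 lower in Granta-519 and 4902 higher and 3806 lower in JeKo-1. The shares of all genes for differences and for calls in both lines are not given for these fits. No libraries of Granta-519 and all 6 of JeKo-1 correlated best with their own number, a hint from the data and not the design. The other alternatives for these counts stayed within 1.5 times. With 3 libraries a group and depth unknown, a gene not called may still have changed.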
